A study of Mus musculus with 20 samples.

Results

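The chaperone and heat shock genes described here were chosen by their symbols in the platform annotation. The symbols were those of the Hsp families a to e, Hsph1, the Dnaja, Dnajb and Dnajc families, the subunits Cct2 to Cct8 and Tcp1, Stip1, Bag1 to Bag6 and Ahsa1. Hspa5 and Hsp90b1, chaperones of the endoplasmic reticulum, were left out. The array held 79 such genes among 13406 genes with a symbol of their own, on 102 of its 17280 probes. The set is wider than the cytosol. Dnajc10, Dnajb9, Dnajb11, Dnajc3 and Hspa13 act in or at the endoplasmic reticulum, Hspd1, Hspe1, Hspa9 and Dnaja3 in mitochondria, and Hspb11 belongs to the transport complex of cilia. No member stood for Hsp90ab1, Hspb1 or Ahsa1, which are not among the symbols on the array.

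The cells were Hepa1-6, a mouse hepatoma line, grown to confluence in DMEM with 25 mM glucose and followed for 96 h. Medium was renewed in all flasks at the start and at 24, 48 and 72 h. Control flasks always received 4 mM glutamine, and experimental flasks received 0 mM and 4 mM in turn, starting with 0 mM. Each of 20 arrays of spotted DNA compared Cy5-labelled RNA of experimental flasks with Cy3-labelled RNA of control flasks. The arrays covered 11 numbered time points, 9 of them with 2 arrays, the second titled with an r. Neither the hour nor the glutamine level of a time point is in the labels, so no value below belongs to a known glutamine level. Nothing says whether r marks another flask or a repeated hybridisation, so the spread between both arrays of a time point may be technical. P-values of means over time points measure the spread between time points. Those of differences among time points and of single time points measure only the spread between arrays of a time point.

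A positive log2 ratio likely means more transcript in the flasks with varied glutamine, because the labels list that RNA as the first channel. Dyes were never swapped, so dye bias of a spot and a steady flask difference cannot be told apart. The ratios hold no expression levels, so neither the order of the genes by level nor the identity of the cells by hepatocyte markers could be checked. An array gave 4269 to 8269 values, and both arrays of a time point correlated across probes at 0.518 to 0.691 at 7 time points. The second arrays of time points 6 and 10 correlated with no other array used at more than 0.0539, and were left out. On the single arrays kept for time points 5 and 6, spots stood apart by their place in the order of the probe numbers, which repeats every 20. The first place had medians of 2.72 and 1.28 and was left out there. The second and the third place were kept, although their medians at time point 5 were 1.24 and 0.46. Members with values at these places (Dnajc9, Dnajb6, Cct3, Tcp1, Cct2, Dnajb1 and Hspa9 at the second, Stip1, Hspa4l, Cct6b, Cct4 and Hspbp1 at the third) are therefore also given without time points 5 and 6 where a result rests on them.

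Chaperones of the HSP70 family bind unfolded stretches of proteins and release them in a cycle driven by ATP. J proteins deliver clients and start the hydrolysis of ATP, HSP110 and BAG proteins exchange the nucleotide, and Stip1 hands clients from HSP70 to HSP90. The ring-shaped chaperonin TRiC, made of Tcp1 and the Cct subunits, folds actin and tubulin, and small heat shock proteins hold unfolded proteins until HSP70 takes over. Many of these genes carry heat shock elements in their promoters, to which the transcription factor Hsf1 binds under proteotoxic stress. Hepatocytes and hepatoma cells synthesise much protein, and glutamine supplies them with carbon and nitrogen.

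Promoters of 5 members are shown because the results turn on them. Dnajb6, Dnajb4 and Stip1 were higher over the time course, Hsph1 varied over it, and Hspa1a is the classical heat-inducible HSP70 gene. Each line gives the 250 bases before a start of the gene on its own strand, from RefSeq on GRCm38.p6. Dnajb6, Dnajb4 and Hsph1 had 2 such windows each. For these genes the window with the most heat shock elements, as searched here, is shown, and the other is not. Capitals mark heat shock elements, searched as the pair of units GAANNTTC or TTCNNGAA and as the triple GAANNTTCNNGAA or TTCNNGAANNTTC, which covers both strands. Every triple contains pairs.
Dnajb6: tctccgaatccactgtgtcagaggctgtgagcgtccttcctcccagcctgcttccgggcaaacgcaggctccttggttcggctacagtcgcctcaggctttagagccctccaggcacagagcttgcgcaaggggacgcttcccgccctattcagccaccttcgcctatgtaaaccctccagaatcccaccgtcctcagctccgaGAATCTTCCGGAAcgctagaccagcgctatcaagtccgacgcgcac
Dnajb4: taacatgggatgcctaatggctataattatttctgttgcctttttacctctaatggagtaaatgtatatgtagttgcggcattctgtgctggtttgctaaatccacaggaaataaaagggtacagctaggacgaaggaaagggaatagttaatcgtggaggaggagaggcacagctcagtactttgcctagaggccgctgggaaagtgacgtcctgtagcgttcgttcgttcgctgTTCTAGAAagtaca
Hsph1: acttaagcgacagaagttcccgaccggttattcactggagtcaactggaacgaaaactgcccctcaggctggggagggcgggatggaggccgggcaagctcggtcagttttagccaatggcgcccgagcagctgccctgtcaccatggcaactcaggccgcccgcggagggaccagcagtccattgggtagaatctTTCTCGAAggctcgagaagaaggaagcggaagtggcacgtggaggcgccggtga
Hspa1a: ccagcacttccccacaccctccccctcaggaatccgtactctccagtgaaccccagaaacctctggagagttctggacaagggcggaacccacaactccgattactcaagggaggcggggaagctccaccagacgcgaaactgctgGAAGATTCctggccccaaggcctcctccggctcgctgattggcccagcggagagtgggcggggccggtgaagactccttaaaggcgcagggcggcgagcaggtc
Stip1: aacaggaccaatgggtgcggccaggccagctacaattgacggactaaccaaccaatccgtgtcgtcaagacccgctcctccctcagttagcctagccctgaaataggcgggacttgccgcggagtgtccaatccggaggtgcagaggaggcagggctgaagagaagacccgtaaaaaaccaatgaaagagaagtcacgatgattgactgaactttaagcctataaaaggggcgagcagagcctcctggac
The windows lie at chr5:29735648-29735897 (plus strand), chr3:152193846-152194095, chr5:149636316-149636565, chr17:34972157-34972406 and chr19:7040027-7040276 (all minus strand). The triple of Dnajb6 ends 33 bases before the start of the gene, and the pairs of Dnajb4, Hsph1 and Hspa1a end 6, 46 and 96 bases before it. These letters do not occur in the window of Stip1. Of the 79 members, 64 had a window in the RefSeq table, and 14 of these genes had a pair in at least 1 window. By window, 16 of 83 member windows held a pair (19.3%), against 12.8% of all 32851 windows of that length. A triple stood in 4 of the 83 (4.82%), those of Dnajb6, Hspd1 and Hspe1, against 0.466% of all windows. Hspd1 and Hspe1 had the same highest counts in a window, 3 pairs and 2 triples. Overlap of windows was not checked, so these windows need not be separate places. Among the members tested below, 2 of 5 higher genes with a window, 2 of 3 lower genes and 2 of 14 uncalled genes had a pair. A match is only a run of letters, and its use in these cells was not measured.

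Values were obtained for 58 of the 79 members on the 18 arrays used, and 27 had a value at 9 or more of the 11 time points. The other 31 genes with values had 1 to 8 time points. The 21 members without a value included Hsp90aa1, the inducible HSP90, both subunits of the mitochondrial chaperonin (Hspd1 and Hspe1), Hspa1b, Cct5 and Bag4. A missing ratio is no sign of absent expression, since why a spot has none is not stated in the sources used here. The 27 genes were tested for a mean log2 ratio over time points other than 0 with limma, with p-values adjusted by Benjamini-Hochberg over all 4398 genes tested.

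Over the time course, 7 of the 27 members were higher in the flasks with varied glutamine (25.9%), where 20.1% of all genes tested were, and 4 were lower (14.8%), where 12.8% of all genes were. Both shares were near the background. The higher genes were Hspa2, Dnajb6, Hspa4l, Stip1, Dnajc2, Dnajc5 and Dnajb4, with folds from 1.12 (Dnajb4) to 1.31 (Dnajb6). The lower genes were Cct6b, Dnajc27, Dnajc22 and Dnajc10, with ratios of varied to constant glutamine from 0.785 (Cct6b) to 0.858 (Dnajc10). The median of the 27 means was 0.13, against 0.02 over all genes tested, and 17 lay above 0 (63.0%, against 53.9% of all genes). The deposited values were not centred on 0. Without centring, the median of all genes was 0.28 instead of 0.02, 20 of the 27 members were called higher and none lower, and all statements of direction here are relative to the median spot of each array.

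**Figure D1:**
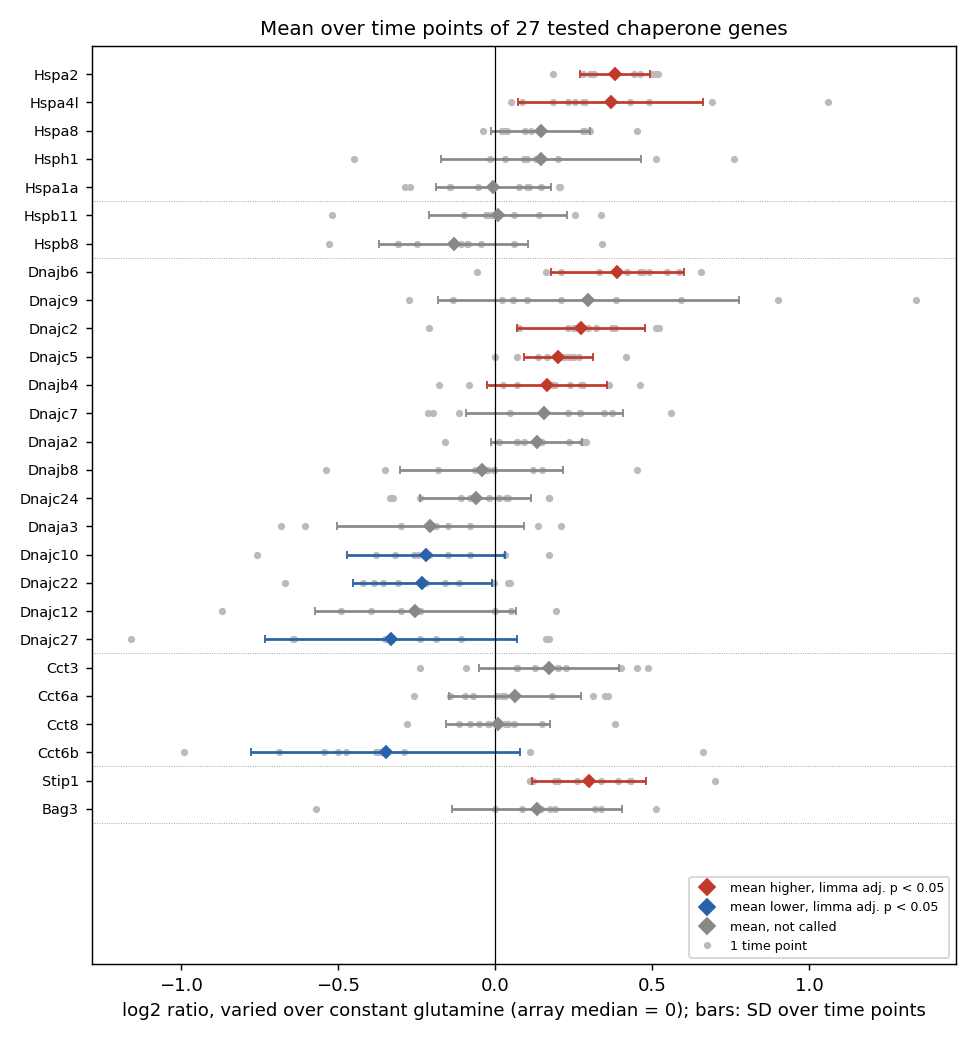
Mean log2 ratio (x axis, array median set to 0) of each of 27 members, in the order HSP70 and HSP110, small heat shock proteins, J proteins, TRiC/CCT and co-chaperones; diamonds are means, bars are SD over 9 to 11 time points, and grey points are single time points. Hspa2, Stip1 and Hspa4l have no time point below 0, whereas the bars of the lower genes Cct6b, Dnajc27 and Dnajc10 reach past 0.

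Among the HSP70 and HSP110 genes, 2 of the 5 tested were higher and none was lower, with a median of 0.14. Hspa2, an HSP70 made mostly in the testis but also elsewhere, had array values from 0.11 to 0.70 with a median of 0.36. All 18 arrays lay above 0. Its mean was 0.38 ± 0.11 (SD, n = 11 time points; limma adjusted p = 7.78e-05), and the lowest time point, 2, still stood at 0.19. Hspa4l, an HSP110 protein that exchanges the nucleotide of HSP70, ranged from -0.07 to 1.06 over arrays with a median of 0.26. It was above 0 on 17 of 18 arrays, with a mean of 0.37 ± 0.29 (n = 11; limma adjusted p = 0.00329). Its highest values, 1.06 and 0.69, came from time points 5 and 6, without which the mean was 0.25 (limma adjusted p = 0.00349).

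Hspa8, the constitutive HSP70 of the cytosol, ranged from -0.24 to 0.47 over 18 arrays, with a median of 0.10 and 14 arrays above 0. Its mean of 0.14 ± 0.16 (n = 11) was not called (limma adjusted p = 0.0568), and the call turned with small changes, for instance to an adjusted p of 0.0382 without time points 5 and 6. Hsph1, the heat-inducible HSP110 protein, had a mean of 0.14 ± 0.32 (n = 10; limma adjusted p = 0.232) and is described with the differences among time points. Hspa13, an HSP70 of the endoplasmic reticulum without the domain that binds clients, had values on 10 arrays only, all below 0, from -1.26 to -0.13 with a median of -0.67. On 9 of the arrays the value came from 1 of its 2 probes.

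Hspa1a, which heat and other stress induce, had a mean of -0.01 ± 0.18 (n = 11; limma adjusted p = 0.942), with a 95% confidence interval of -0.13 to 0.12. Array values lay between -0.29 and 0.38, with 10 arrays above 0 and 8 below. The annotation listed 17 spots for it, all of 1 accession, and 10 accessions on the array were repeated 17 times. Only 4 of these spots gave a value on 14 or more of the 18 arrays, and 13 did so on 3 or fewer. The 4 spots of an array spread over a median of 0.35, from 0.01 to 0.76, and lay on both sides of 0 on 11 of 18 arrays. None of the 4 was called on its own. Their means were -0.04 ± 0.19 and -0.07 ± 0.15 (n = 11 each), and 0.09 ± 0.30 and 0.17 ± 0.24 (n = 10 each), with limma adjusted p from 0.0984 to 0.661. A spotted DNA of Hspa1a may also take up transcripts of Hspa1b, a nearly identical gene that had no value here.

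**Figure D2:**
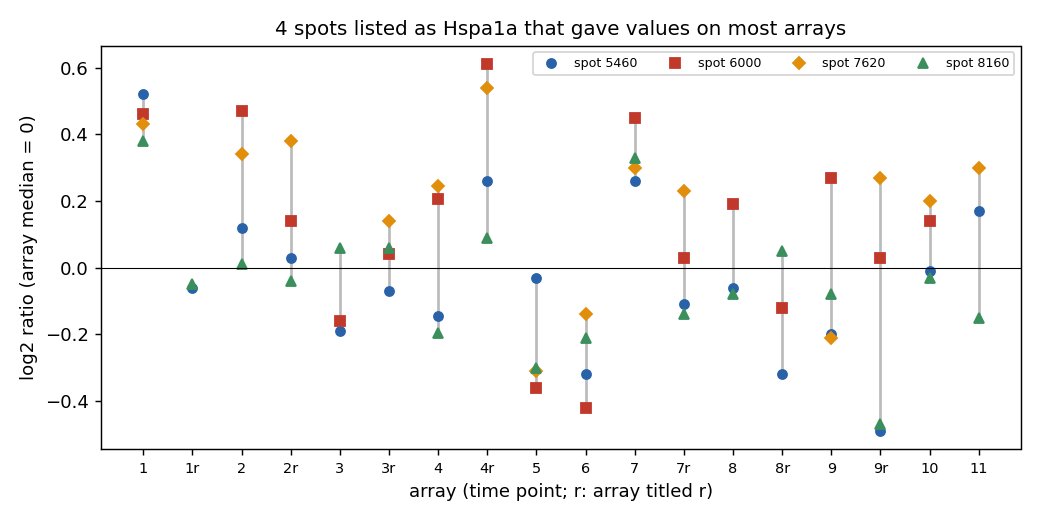
Log2 ratio (y axis, array median set to 0) of the 4 spots listed as Hspa1a that gave values on 14 or more arrays, for each of 18 arrays (x axis: time point, r for the array titled r); grey bars join the spots of an array. Spots of 1 array differ by up to 0.76, and on 11 arrays they lie on both sides of 0.

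The J proteins were the largest family, with 39 members and 14 tested, of which 4 were higher and 3 lower (median 0.04). Dnajb6, which keeps polyglutamine proteins from aggregating and whose promoter above holds the triple, was above 0 on 17 of 18 arrays. Values ran from -0.06 at time point 6 to 0.78, with a median of 0.44. The mean was 0.39 ± 0.21 (n = 11; limma adjusted p = 0.000489), and 0.43 without time points 5 and 6 (adjusted p = 0.000158). When each of the 20 probe-number positions was centred on its own, the mean was 0.26 and the call was lost (limma adjusted p = 0.0914).

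Dnajc2, a J protein bound to ribosomes that helps fold new chains, ranged from -0.21 to 0.63 (median 0.36, 16 of 18 arrays above 0). Its mean was 0.27 ± 0.20 (n = 11; limma adjusted p = 0.00466). Dnajc5, the cysteine string protein of secretory vesicles, ranged from -0.10 to 0.64 with a median of 0.20 and 16 of 18 arrays above 0. It had a mean of 0.20 ± 0.11 (n = 11; limma adjusted p = 0.00579). The arrays of 1 time point could differ widely in both genes. Dnajc2 read -0.07 and 0.57 at time point 1, and Dnajc5 read 0.54 and -0.10 at time point 9. Dnajb4, a cytosolic partner of HSP70 with the heat shock pair in the promoter above, ranged from -0.18 to 0.46 (median 0.21, 15 of 18 arrays above 0). Its mean of 0.17 ± 0.19 (n = 11) barely passed (limma adjusted p = 0.04996), and leaving out any of 9 of the 11 time points ended the call (adjusted p up to 0.103). Its 2 probes gave similar means, 0.14 and 0.21.

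Of the lower J proteins, Dnajc22 ranged from -0.67 to 0.26 over 17 arrays, with a median of -0.18 and 14 arrays below 0. Its mean was -0.23 ± 0.22 (n = 11; limma adjusted p = 0.0152), but -0.13 with all 20 arrays (adjusted p = 0.360). Dnajc27, a small GTPase with a J domain, ranged from -1.16 to 0.17 over 14 arrays, with a median of -0.27 and 11 arrays below 0. Its mean of -0.33 ± 0.40 (n = 10; limma adjusted p = 0.0279) was no longer called without time point 1, 2 or 3 (adjusted p from 0.0504 to 0.0652), nor with all 20 arrays (-0.31; adjusted p = 0.0891). Dnajc10, a disulfide reductase of the endoplasmic reticulum, ranged from -0.76 to 0.19 over 16 arrays, with a median of -0.20 and 12 arrays below 0. Its mean of -0.22 ± 0.25 (n = 10; limma adjusted p = 0.0372) was not called in 7 of 11 fits that left out a time point, with adjusted p up to 0.0818, nor with all 20 arrays (adjusted p = 0.0740) or with blocks of 540 probes centred (adjusted p = 0.0782). Without centring, the means of Dnajc10 and Dnajc22 were 0.05 and 0.03, above 0, and that of Dnajc27 was -0.09 and not called.

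The remaining J proteins tested were not called. Dnajc9, a nuclear histone chaperone, had the highest uncalled mean, 0.30 ± 0.48 (n = 11; limma adjusted p = 0.0732), which was 0.15 without time points 5 and 6. Dnajc12, which helps fold the aromatic amino acid hydroxylases, had the lowest, -0.25 ± 0.32 (n = 9; limma adjusted p = 0.0509). Its call turned with small changes. It was lower without time points 5 and 6 (limma adjusted p = 0.0257) and with all 20 arrays (adjusted p = 0.0451). Without centring its mean was 0.03 and not called. Dnaja2 (0.13 ± 0.14, n = 10) and Dnajc7 (0.16 ± 0.25, n = 11), cytosolic partners of HSP70, lay above 0. The mitochondrial Dnaja3 had a mean of -0.21 ± 0.30 (n = 9), with probes that disagreed, at -0.44 and -0.04 on average over arrays. Dnajc24, an enzyme helper of diphthamide synthesis, and Dnajb8 had means of -0.06 ± 0.18 and -0.04 ± 0.26 (n = 11 each).

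Some members of the endoplasmic reticulum that the rule took in, grouped after their values were seen, mostly read below 0. The group is not a full list of that compartment, and the share of array values below 0 over all genes was not counted. Dnajb9, a J protein partner of Hspa5, was below 0 on all 11 arrays with a value, from -0.66 to -0.01 with a median of -0.31. Dnajb11, another such partner, was below 0 on 4 of 4 arrays, between -0.30 and -0.08. Dnajc1, a membrane-bound J protein, was on both sides, with 5 arrays above 0 and 6 below and a median of -0.07. With Dnajc10 and Hspa13, these 5 genes gave 52 array values, of which 43 lay below 0. Without centring, 21 of the 52 did, and the means of Dnajb11, Dnajc1 and Dnajc10 were above 0 (0.09, 0.25 and 0.05), whereas those of Hspa13 and Dnajb9 stayed below (-0.34 and -0.05). In the fit of genes with 6 or more time points, Dnajb9 (mean -0.35 ± 0.17, n = 7; limma adjusted p = 0.00575) and Hspa13 (-0.61 ± 0.35, n = 8; adjusted p = 0.00155) were lower, as was Dnajc28 (-0.27 ± 0.11, n = 8; adjusted p = 0.00704). That fit held 16 more members, of which 12 had means below 0 (75%). Among all genes with 6 to 8 time points the share was 75.4%, so sparsely measured genes lay below 0 in general.

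Hspa5 and Hsp90b1, the HSP70 and HSP90 of the same compartment, were measured beside them. Hspa5 had its lowest value, -1.35, at time point 11 and its highest, 1.09, at time point 10, each on 1 array. Its mean was 0.30 ± 0.85 (n = 9; limma adjusted p = 0.316). It differed among time points, with a span of 2.44 (limma F-test adjusted p = 2.10e-15). Tested against 0, it was higher at time points 2, 3, 4 and 9, from 0.64 to 0.995, and lower at time point 7, at -0.815. Hsp90b1 had a mean of -0.26 ± 0.33 (n = 9; limma adjusted p = 0.0474).

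Of the TRiC chaperonin, 4 of 9 subunit genes were tested, with none higher, 1 lower and a median of 0.04. Cct3 ranged from -0.36 to 0.65 over 17 arrays with a median of 0.20, and its mean of 0.17 ± 0.22 (n = 11) was not called (limma adjusted p = 0.0605). Without time points 5 and 6 the mean of Cct3 was 0.14 (limma adjusted p = 0.137). With each of the 20 probe-number positions centred on its own it was 0.04 (limma adjusted p = 0.774). Cct6a and Cct8 had means of 0.06 ± 0.21 and 0.01 ± 0.17 (n = 11 each), with 95% confidence intervals of -0.08 to 0.20 and -0.11 to 0.13. These intervals do not cover the choice of centring. With blocks of 540 probes centred, Cct8 was called higher at 0.24 (limma adjusted p = 0.00072). Cct6a was not called there, at 0.07 (limma adjusted p = 0.329). Cct6b, the copy of Cct6a made mainly in the testis, was the lower one. It ranged from -1.17 to 0.66 over 18 arrays, with a median of -0.44. The 2 arrays above 0 were those of time points 5 and 6, and the other 16 lay below. Its mean was -0.35 ± 0.43 (n = 11; limma adjusted p = 0.0236), and -0.51 without those time points (adjusted p = 0.000131). With blocks of 540 probes centred it was -0.20 (limma adjusted p = 0.176), and without centring -0.09 (adjusted p = 0.425). Without time point 3, 4 or 7 the mean was no longer called, with adjusted p of 0.0556, 0.0508 and 0.0518. Cct6b read below Cct6a on 14 of 17 arrays that measured both. Tcp1, Cct2, Cct4 and Cct7 had values at 6 or 7 time points and no call in the wider fit, with means between -0.21 (Cct4) and 0.03 (Cct7). Cct4 was below 0 on 7 of 7 arrays, between -0.46 and -0.10. Tcp1 reached 0.81 at time point 5, and lay between -0.61 and 0.04 elsewhere.

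Of the co-chaperones, 2 of 8 were tested. Stip1, which joins HSP70 to HSP90, was above 0 on all 18 arrays, from 0.04 to 0.70 with a median of 0.27. Its mean was 0.30 ± 0.18 (n = 11; limma adjusted p = 0.00168), and 0.24 without time points 5 and 6 (adjusted p = 0.00375). Hspa2 and Stip1 were the only tested members with every array above 0. Bag3, an exchange factor that leads clients of HSP70 to autophagy, had a mean of 0.13 ± 0.27 (n = 11; limma adjusted p = 0.195). It was above 0 on 14 of 18 arrays but at -0.57 at time point 6, and was called without that time point (0.20; adjusted p = 0.0126). Bag1 had values at 8 time points, with a mean of -0.20 ± 0.36, and was not called.

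Neither of the 2 small heat shock proteins tested was called. Hspb8, the partner of Bag3, ranged from -0.53 to 0.34 over 17 arrays, with 13 below 0. Its mean was -0.13 ± 0.24 (n = 10; limma adjusted p = 0.177). Hspb11, the ciliary protein, had a mean of 0.01 ± 0.22 (n = 11; limma adjusted p = 0.921).

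**Figure D3:**
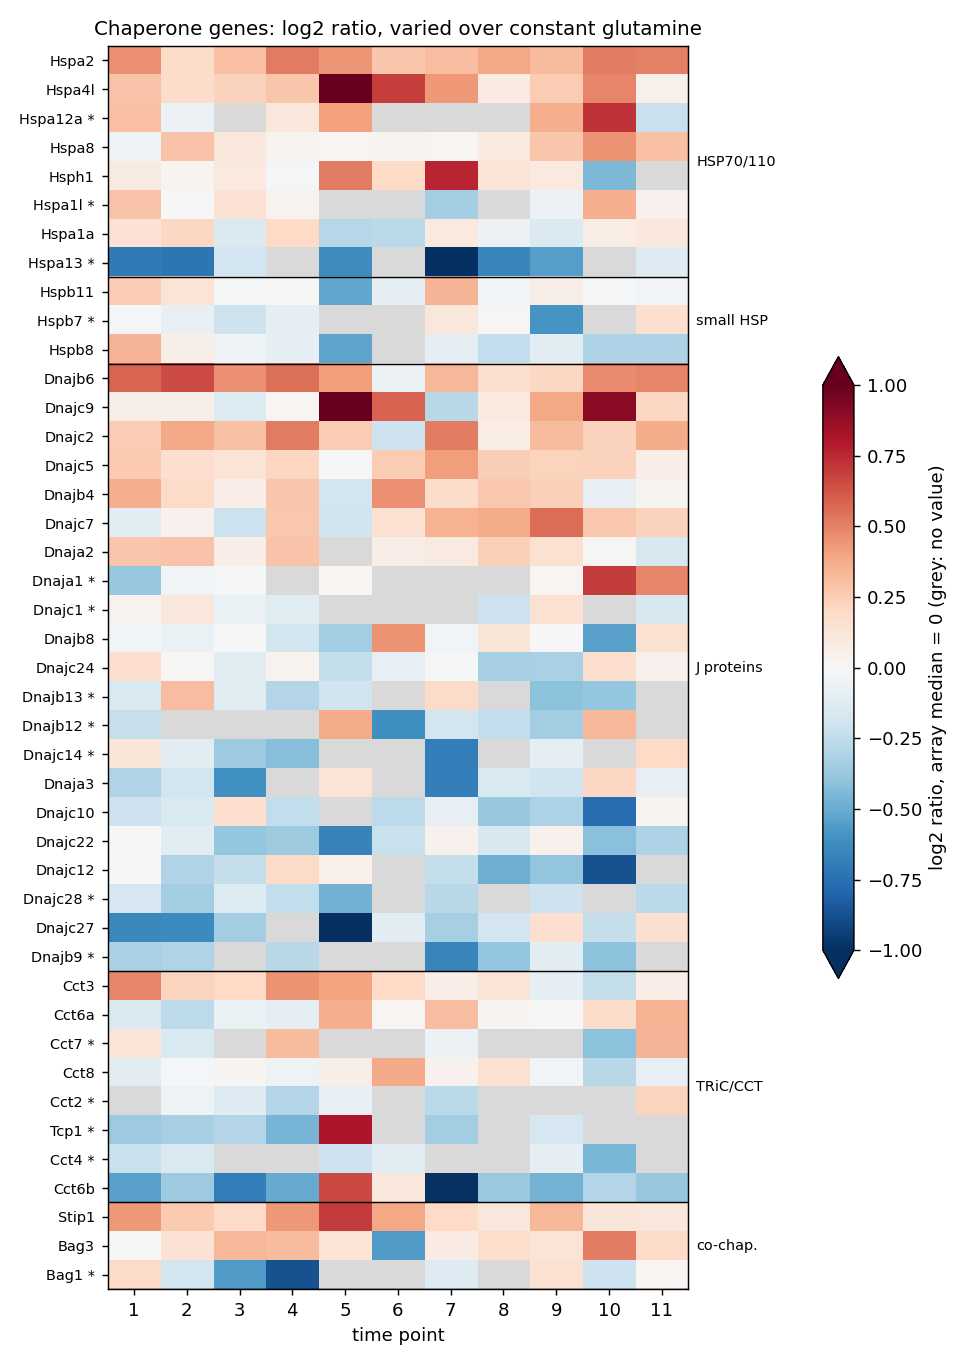
Log2 ratio (colour, array median set to 0, scale cut at -1 and 1) of 43 members with values at 6 or more of 11 time points (columns, 1 or 2 arrays each), in rows by family and mean; an asterisk marks members with 6 to 8 time points and grey marks no value. Hspa2 and Stip1 are red in every column, Hspa13 and Dnajb9 blue wherever measured, and Cct6b is blue except at time points 5 and 6.

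The genes that work beside these chaperones were read from a list of 69 partners, of which 58 were on the array and 16 were tested. Of these, 2 were higher, 2 lower and 12 not called, where 20.1% of all genes tested were higher and 12.8% lower. The median of the partners was -0.06. Naca, a subunit of the complex that covers new chains at the ribosome, had a mean of 0.47 ± 0.17 (n = 11; limma adjusted p = 6.13e-05) and was above 0 at 11 of 11 time points. Hsf4, a relative of Hsf1, had 0.17 ± 0.19 (n = 11; limma adjusted p = 0.0415). Cdc37l1, which binds HSP90, was lower at -0.18 ± 0.13 (n = 9; adjusted p = 0.0324), and so was Ttc1 at -0.19 ± 0.16 (n = 9; adjusted p = 0.0362). Stub1, the ubiquitin ligase that takes clients from HSP70, had 0.11 ± 0.13 (n = 11; limma adjusted p = 0.105). St13, which stabilises HSP70 bound to its client, had -0.25 ± 0.44 (n = 11; limma adjusted p = 0.10), but differed among time points. It spanned 1.35, with 0.32 at time point 1 and -1.03 at time point 7 (limma F-test adjusted p = 4.72e-08). Of 12 partners in that test, 4 were called, namely St13, Btf3, Sgta and Pfdn6, where 32.2% of all genes were called.

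Differences among time points were tested with limma's F-test in 25 members with 15 or more arrays. It called 5 of them (20%), where it called 32.2% of all 3688 genes tested. The test draws each gene's spread between both arrays of a time point towards a common value, so that the SD it used lay between 0.19 and 0.20 in all 25 members. The median span from the lowest to the highest time point was 0.73 in members and 0.72 in all genes. The least variable member was Hspa2, with a span of 0.33 (limma adjusted p = 0.886), followed by Dnajc5 with 0.42 (adjusted p = 0.935).

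Dnajc9 had the smallest p, with a span of 1.61 (limma adjusted p = 9.48e-08). Both arrays of time point 7 were low, at -0.40 and -0.15, those of time point 9 were at 0.43 and 0.34, and the single arrays of time points 10 and 5 at 0.90 and 1.34. Without time points 5 and 6 it still spanned 1.18. Cct6b spanned 1.65 (limma adjusted p = 7.93e-06), with 0.66 at time point 5 and -0.99 at time point 7, where the arrays read -1.17 and -0.81. Without time points 5 and 6 the span was 0.70 and the call was lost.

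Dnajc12 spanned 1.06 (limma adjusted p = 0.0047), from 0.19 at time point 4 to -0.87 on the single array of time point 10, after -0.49 and -0.40 at time points 8 and 9. Hsph1 spanned 1.21 (limma adjusted p = 0.0222), with its extremes on single values, 0.76 at time point 7 and -0.45 at time point 10. Without the array that gave 0.76 the call was lost (adjusted p = 0.158), and with blocks of 540 probes centred the span was 0.57 (limma adjusted p = 0.355). Hspa4l spanned 1.01 (limma adjusted p = 0.0285), with 0.05 at time point 11 as the lowest and 1.06 at time point 5 as the highest value. Its span was 0.44 without time points 5 and 6, where the call was lost. Dnajc9, Dnajc12 and Hsph1 were the 3 members called without those time points, where 20.4% of all genes were. With all 20 arrays, limma's F-test called none of 24 members and 7.0% of all genes. In that test 4 members had an unadjusted p under 0.05, and the share of all genes under this limit was not counted.

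**Figure D4:**
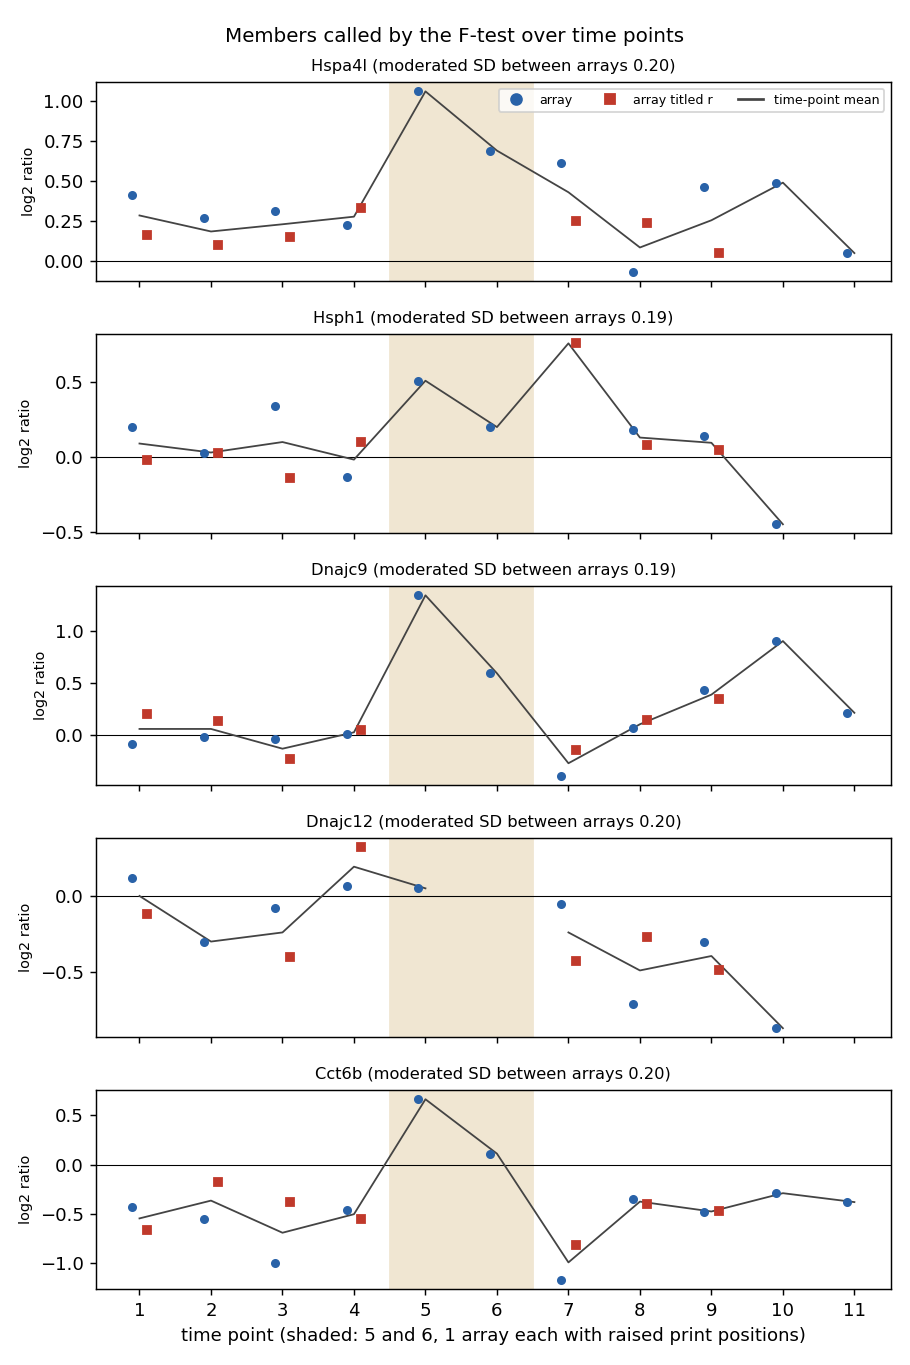
Log2 ratio (y axis, array median set to 0, scale differs between panels) by time point (x axis, numbered and not in hours) of the 5 members called by the F-test; circles are first arrays, squares arrays titled r, lines join time-point means, and time points 5 and 6 are shaded. The highest values of Hspa4l, Dnajc9 and Cct6b fall in the shaded band, and the extremes of Hsph1 rest on 1 array each.

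At the 7 time points with 2 arrays, each mean was tested against 0. Summed over them, members were called higher 16 times and lower 7 times in 175 tests (9.14% and 4%), where all genes gave 9.81% and 5.53%. At time point 1, 5 of 25 members were higher and 1 lower, against 16.4% and 5.02% of all genes. The higher ones were Dnajb6 at 0.59, Cct3 at 0.49, Hspa2 at 0.46, Stip1 at 0.43 and Dnajb4 at 0.36, with limma adjusted p from 0.00114 to 0.0449. Without the first array of time point 1, limma made 0 higher calls and 0 lower calls, and without the second 4 and 0. A lone array is assumed to vary like the pairs of other time points. Time point 4 gave 5 higher (Dnajb6, Dnajc2, Hspa2, Cct3 and Stip1, from 0.43 to 0.55) and 2 lower (Cct6b and Dnajc22), against 16.4% and 8.35% of all genes. Without the first array of time point 4, 3 higher calls and 1 lower call were made, and without the second 0 and 1. Time point 7 gave 4 higher and 1 lower, against 15.8% and 11.9%. Hsph1 at 0.76, from 1 array, Dnajc2 at 0.51, Hspa4l at 0.43 and Dnajc5 at 0.42 (limma adjusted p from 0.00166 to 0.0185) were higher there, and Cct6b was lower at -0.99 (adjusted p = 1.04e-08). The spread behind the test of Hsph1 came from other time points. Without the first array of time point 7, 1 higher call was made, and without the second 3, and the lower call was made in both cases.

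The other time points held few calls. At time point 2 only Dnajb6 was higher, at 0.66 (limma adjusted p = 0.00159), and no member was lower, against 2.66% and 1.49% of all genes. Unadjusted p under 0.05 was reached there by 4 members on the higher and 1 on the lower side. Time point 3 gave Dnajb6 at 0.46 and Cct6b at -0.69, against 7.96% and 4.13%. No member was higher at time points 8 and 9, where limma called 3.75% and 5.59% of all genes higher. Unadjusted p under 0.05 was reached at time point 8 by 2 members on the higher and 3 on the lower side. At time point 9 it was reached by 6 and 4. The share of all genes under this unadjusted limit was not counted at any time point. Dnajc12 was lower at time point 8 (-0.49; limma adjusted p = 0.0183) and Cct6b at time point 9 (-0.48; adjusted p = 0.0169), against 3.02% and 4.83% of all genes. Cct6b was thus called at 5 of the 7 time points and Dnajb6 at 4, more than any other member. The calls at time point 2 (without its second array), time point 3 (higher without either array, lower without the first), time point 8 (without its first) and time point 9 (without either) also went to 0.

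**Figure D5:**
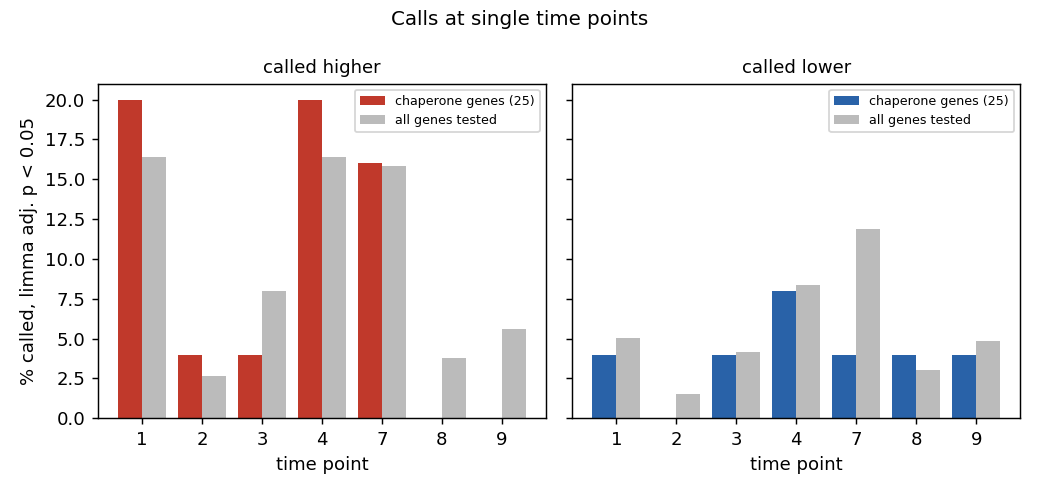
Percent of genes called by limma (y axis, adjusted p under 0.05) at each of 7 time points with 2 arrays (x axis), higher on the left and lower on the right; coloured bars are the 25 tested members and grey bars all genes tested. Members were called higher most often at time points 1, 4 and 7, as all genes were, and no member was called higher at time points 8 and 9.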

How the data were processed

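The authors deposited 1 value per spot and array, taken here as log2 ratios of experimental over control RNA. Base, direction and earlier processing are not given in the sources used here, so base 2 is an assumption and the direction is likely. One array of time point 4 has a label of the second channel naming cells without glutamine, treated as a slip. The members, the lists of partner genes, the arrays left out and the tests were chosen with earlier results of these data known.

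From the deposited log2 ratios, each of 18 arrays was centred on its median and probes of 1 symbol were averaged. Tests used limma 3.58.1 under R 4.3.3, adjusted by Benjamini-Hochberg (0.05). The mean test used time-point means of genes with 9 or more time points and treats time points as independent. The F-test and single time points used genes with 15 or more arrays. The procedure was tested on simulated data. Genes were named when called in a test, as highest or lowest of a family, or as called partners. Some members with too few time points for the mean test, among them Bag1, were also named. Hspa8, Dnaja2, Dnaja3, Dnajb8, Dnajc7, Dnajc24, Cct6a, Cct8, Stub1 and St13 were named after their values were seen. Arrays titled r did not deviate together (6 of 21 pairs over 0.1), so that mark was not used as a block. Alternatives are listed in the closing section. The number of arrays limits the precision.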

Additional observations from a re-analysis of the deposited data

Results flagged for a closer look

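Effects at different time points differed by limma's F-test in 5 members, which is what marks them for a closer look. The values are spans from the lowest to the highest time point on the log2 scale. Dnajc9 spanned 1.61 (adjusted p = 9.48e-08), with 1.34 and 0.90 on the single arrays of time points 5 and 10. Cct6b spanned 1.65 (adjusted p = 7.93e-06), with both arrays of time point 7 at or below -0.81. Hsph1 spanned 1.21 (adjusted p = 0.0222), Dnajc12 1.06 (adjusted p = 0.0047) and Hspa4l 1.01 (adjusted p = 0.0285). Dnajc9 (probe-number position 2), Cct6b and Hspa4l (position 3) lie at positions whose spots had medians of 1.24 and 0.46 at time point 5. After each position was centred on its own, Dnajc9 spanned 1.11 (adjusted p = 0.00771), Cct6b 1.19 (adjusted p = 0.00439) and Hspa4l 0.57 (adjusted p = 0.528). At the other time points, medians of probe-number positions 1 to 3 lay between -0.095 and 0.08 on the arrays used. Their part in the values there was not tested.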

How the results depend on the processing

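Dnajc2, Dnajc5, Hspa2, Hspa4l and Stip1 kept their call in the mean under all 8 alternatives and without each of the 11 time points. All are higher genes, so the fit without centring, which raised every mean, could hardly end these calls. The limits of 6 or more and of all 11 time points left their means unchanged. With all 20 arrays and all spots, 7 of the 11 members called in the mean were called again with the same sign among 9, but 0 members and 262 genes passed the F-test. Of 17 partners there, 1 was higher and 0 lower, and single time points gave 1 higher and 1 lower call in 168 member tests. Without centring, 20 of 27 members were higher and 0 lower, against 2946 and 69 of 4398 genes and 9 and 0 of 16 partners. The F-test then called 8 members, and single time points gave 119 higher and 2 lower calls. Without centring, 17 means turned from below to above 0, because the deposited medians were above 0. They were Dnaja3 0.0344, Dnajb8 0.22, Dnajc10 0.0495, Dnajc12 0.03, Dnajc22 0.0282, Dnajc24 0.20, Hspa1a 0.25 and Hspb8 0.14, and the partners Btf3 0.19, Cdc37l1 0.0917, Pdcl 0.24, Pdcl3 0.10, Sgta 0.0559, St13 0.00409, Ttc1 0.0472, Vbp1 0.16 and Vcp 0.20. Dnajc22 at time point 4 turned too (0.06). The spread taken between arrays of a time point leaves out that between time points. It gave 14 of 25 members, 1336 of 3664 genes and 5 of 12 partners higher, and 4 partners lower. With 6 or more time points, 7 of 43 members and 890 of 6214 genes were lower. With all 11 time points, 2 of 20 members, 251 of 2574 genes and 0 of 10 partners were lower. Centring blocks of 540 probes gave 4 of 16 partners lower and 29 higher calls in 175 member tests at single time points. Requiring all 18 arrays left 1865 genes to test, of which the F-test called 676 (36.2%), and 15 members, of which it called 4.

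Settings chosen after seeing the data were 20 print positions centred, which gave 4 higher partners and shared 9 of 10 member calls with the reported ones, and the data without time points 5 and 6, which gave 9 lower members and 3 members by the F-test. Leaving out a time point gave 6 to 9 higher and 2 to 6 lower members, 716 to 961 higher and 473 to 680 lower genes, and 1 to 3 higher and 0 to 3 lower partners. Leaving out an array gave 4 to 9 members and 1009 to 1396 genes by the F-test, and 14 to 19 higher and 5 to 10 lower calls summed over single time points, with larger losses at the time point whose array was left out, as given there. The title mark r as a replicate block gave 4 members by the F-test, without Hspa4l. It is a pairing the labels do not state, and deviations of arrays titled r correlated between -0.42 and 0.32. The cause of these changes was not tested where none is named.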

Other observations

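Members with 1 to 5 time points were 15. Dnajb1, the main J protein of heat-stressed cells, read 3.26 at time point 5 and between -0.47 and -0.38 on 3 other arrays. Its spot lies at probe-number position 2, whose median at time point 5 was 1.24. Hspbp1, an exchange factor of HSP70, had 1 value, 0.98 at time point 5, where the spots of its position, 3, had a median of 0.46. Hspa9, the mitochondrial HSP70, had 1 value, 0.89 at time point 8. Hspbap1 was below 0 on 4 of 4 arrays (-0.81 to -0.07), and Dnajc4 above 0 on 3 of 3 (0.14 to 0.63).

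Profiles over 11 time points were compared for the 20 members with every time point, as a description over points that share arrays. The median Pearson correlation of their 190 pairs was -0.02, against 0.03 over pairs of all 2574 such genes. The highest was 0.89 between Cct6b and Dnajc9, and 0.72 without time points 5 and 6. Dnajc22 and Hspb11 followed with 0.84, and 0.75 without those time points. The lowest was -0.90 between Cct6b and Hspb11, and -0.67 without those time points. Dnajc9 and Hspb11 had -0.81 (-0.47 without them), Bag3 and Cct8 -0.80 (-0.46), and Cct3 and Hspa8 -0.78 (-0.78). Cct8 and Dnajb8 had 0.75, and 0.76 without them. Cct6b and Hspa4l had 0.73, but -0.36 without them. Over the 4 TRiC subunits tested, the median was 0.23, and -0.21 without time points 5 and 6.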
